A study of Mus musculus with 9 samples.

Results

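The protein coding genes whose names begin with Eif or Eef are mainly the eukaryotic initiation factors (eIF) and elongation factors (eEF) of translation. The same names include Eif4ebp1 and Eif4ebp2, binding proteins that hold Eif4e inactive and are counted below with the eIF4 family. The rule used name and biotype and no measured value, though it was set with earlier results of these data known. The deposited count table lists the 3958 genes with the highest totals, and 40 of them met the rule. By name they fell into 5 genes of the eIF2 family, 11 of eIF3, 13 of eIF4, 5 of eEF and 6 other initiation factors. A processed pseudogene, Eif4a-ps4, carried a matching name but another biotype and was left out. Their levels were described in adipose tissue RNA of 9 libraries from male C57BL/6J mice at day 21, in the groups CPX, MPX and EA of 3 libraries each.

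The series compares a normal diet (ND), a high-fat diet (HFD) and a high-fat diet with electroacupuncture, the stimulation of acupuncture needles with an electric current. The EA libraries carry the label EA as their treatment, and their titles begin with APX. No label says which of CPX and MPX received which diet, so the comparisons between them carry no direction of diet. The labels also give no fat depot, age or needle site, and do not state whether every library came from its own mouse, so the spread that the p-values measure is that between these libraries, which may be technical. The extraction protocol speaks of retinas. None of the retina markers (0 of 11) and none of the skeletal muscle markers (0 of 10) were listed, while 14 of 14 adipocyte markers were.

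Translation begins when eIF2, bound to GTP, brings the initiator tRNA to the small ribosomal subunit. The many-subunit eIF3 holds that subunit open for the mRNA, and the eIF4 factors bind the mRNA cap and unwind the leader. During elongation eEF1A delivers aminoacyl-tRNAs, the eEF1B subunits recharge it with GTP, and eEF2 moves the ribosome along. Many of the mRNAs for elongation factors, for some eIF3 subunits and for ribosomal proteins belong to the TOP class: they begin with a C and a run of pyrimidines, and their translation is controlled by the kinase complex mTORC1. In adipocytes this machinery makes the enzymes and hormones of a tissue whose protein output follows insulin and nutrient supply.

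The listed counts came to 12115183 to 14208853 per library, and every factor had at least 536 counts in each library. Levels are given as counts per 1000000 listed counts (CPM) after TMM scaling, and since the table holds only the most abundant genes, the column sums are not sequencing depths. The CPX libraries stood apart from each other. Spearman correlations across the 3958 genes were 0.187 for CPX 6 with CPX 4 and 0.307 for CPX 6 with CPX 8, against at least 0.873 within MPX and 0.795 within EA. The summed adipocyte markers ranged from 9422 CPM (CPX 6) to 116146 CPM in CPX, from 59839 to 62652 CPM in MPX and from 39516 to 57777 CPM in EA. Of 12 B cell markers 9 were listed, with sums of 203 to 3757 CPM in CPX (highest in CPX 6), 222 to 275 CPM in MPX and 834 to 2099 CPM in EA. No marker gene of these lists that was in the table had a count of 0 in any library. The part of cell composition in the differences below was not tested, and in bulk tissue fewer cells of a type and less RNA per cell cannot be told apart.

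The base sequence at the transcription start is shown first because a C and a run of pyrimidines there define the TOP class. RefSeq (GRCm38.p6) gave a start for 31 of the 40 genes. There was no entry for Eef1d, Eef1g, Eif1a, Eif3e, Eif3h, Eif3i, Eif4e3, Eif4ebp1 and Eif4g2. The windows hold 15 bases before and 15 bases after the annotated start, 5′ to 3′ on the gene's strand, and capitals mark each unbroken run of 5 or more C or T. A run could lie anywhere in the window, and neither its position nor a C at the start was checked. The members fixed as TOP mRNAs that carry the results are followed by members outside that list. Eif3f, Eif2s3x and Eif2b5 were chosen after their sequences and values were seen, as the members with the longest runs.
Eef1a1 (chr9:78481710-78481739, minus strand): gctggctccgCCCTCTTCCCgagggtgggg
Eef2 (chr10:81176616-81176645, plus strand): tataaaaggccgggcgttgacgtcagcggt
Eef1b2 (chr1:63176816-63176845, plus strand): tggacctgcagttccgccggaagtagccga
Eif3f (chr7:108934400-108934429, plus strand): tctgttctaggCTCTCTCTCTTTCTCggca
Eif4b (chr15:102073758-102073787, plus strand): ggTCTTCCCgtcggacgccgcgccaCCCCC
Eif3m (chr2:105017013-105017042, minus strand): TTTTCCggtcggcgtgTTTCTggatcggag
Eif3a (chr19:60790679-60790708, minus strand): cggggctcgggcggcggcgctgccgccgcg
Eif4g1 (chr16:20672712-20672741, plus strand): cgccagcgcagctccgCCCTCTgcgccggt
Eif2s3x (chrX:94212637-94212666, minus strand): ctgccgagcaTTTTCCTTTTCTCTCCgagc
Eif2b5 (chr16:20498802-20498831, plus strand): CCTTCCTCTTTCTCTCCCTgcaactacacc

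The window of Eef1a1, the factor that delivers aminoacyl-tRNA, held a run of 10 pyrimidines, and that of the eIF3 subunit Eif3f a run of 15. Eif2s3x, the X-linked gamma subunit of eIF2 and no member of the TOP list, held a run of 16. Eif2b5, the catalytic subunit of the exchange factor that recharges eIF2 with GTP and also outside the list, held the longest run. That run, of 19, began at the upstream edge of the window. Other members outside the list with runs of 10 or more were Eif2s3y (12), Eif3l (10) and Eif4e (10). In the windows of Eef2 and Eef1b2 no run of 5 was found. Runs of 5 or more were present in 3 of 5 matched TOP members (60%), 11 of 26 other members (42.3%) and 43 of 58 ribosomal protein genes (74.1%), against 51.5% of the 27025 genes in the RefSeq table, each gene counted by the longest run at any of its starts. Runs of 8 or more were present in 7 of the 31 matched members (22.6%), 25 ribosomal protein genes (43.1%) and 13.9% of all genes in that table. These matches describe annotated starts and not the starts used in this tissue, and a run in the window is not by itself a TOP motif.

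Per kilobase of listed gene length, the elongation factors Eef1a1 and Eef2 led the 40 genes. Averaged over the 9 libraries, Eef1a1 stood at 2736 CPM per kilobase and Eef2 at 853 CPM per kilobase. Next came Eif1, which guides start codon choice, at 193 CPM per kilobase, Eif5a, the hypusine-carrying factor that helps ribosomes past difficult peptide bonds, at 186 CPM per kilobase, and the eEF1B subunit Eef1g at 180.1 CPM per kilobase. Eif3h was the highest eIF3 subunit at 139.8 CPM per kilobase. Its listed length is 1612 bases, and without division by length its mean CPM lay below that of Eif3a in each group. The cap-binding protein Eif4e (13.1 CPM per kilobase), its relative Eif4e2 (10.4) and the subunit-joining GTPase Eif5b (10.1) were the lowest 3. The eEF1B subunit Eef1d, at 19.5 CPM per kilobase, ranked 31 of the 40. Together the 40 genes took 1.36% to 1.58% of the listed counts in MPX, 1.73% to 2.32% in EA and 1.504% to 3.26% in CPX. Eef1a1 alone took 0.374% of the listed counts in MPX 5 and 1.47% in CPX 6.

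**Figure D1:**
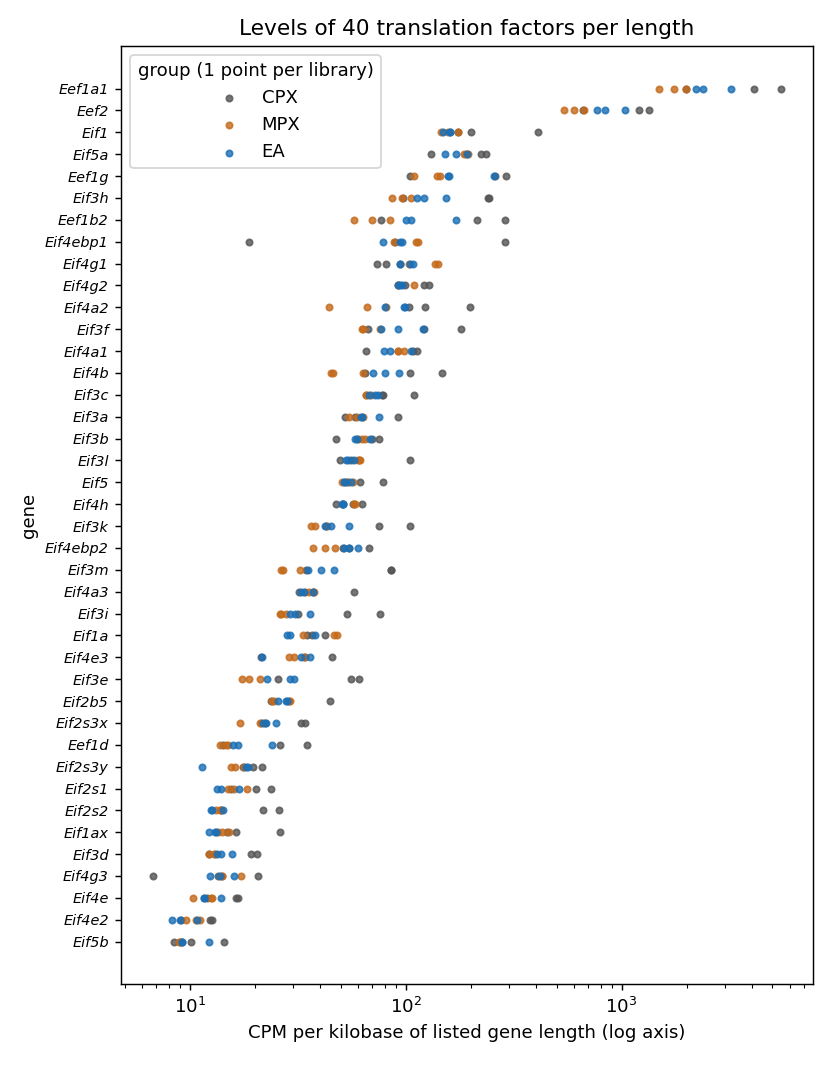
Level of each of the 40 translation factors in CPM per kilobase of listed gene length (log axis), 1 point per library, coloured by group. Eef1a1 and Eef2, with means of 2736 and 853 CPM per kilobase, stand above the other 38 genes.

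Between CPX and MPX, most translation factors had a lower mean level in MPX, and the family medians farthest from 0 were those of eIF3 (-0.87) and eEF (-0.82). The fitted difference was negative for 37 of the 40 genes, with a median log2 difference (MPX minus CPX) of -0.37, against -0.11 over all 3958 genes. No gene of the table passed an adjusted p of 0.05 in the edgeR quasi-likelihood fit (0%), and therefore no factor did. Over all genes 13.2% had an unadjusted p under 0.05 in edgeR, and DESeq2 called 201 genes and limma voom 0. At an unadjusted p under 0.05, 13 factors were lower in MPX (32.5%, against 8.21% of all genes) and 1, Eif4g1, was higher (against 4.98%). The MPX libraries lay below all CPX libraries, without overlap, for 10 factors (25%, against 7.71% of all genes): 4 of 11 eIF3 subunits, 3 of 13 eIF4 members, 2 of 5 eIF2 members, 1 of 6 other factors and 0 of 5 elongation factors. They lay above all CPX libraries for Eif4g1 alone (8.46% of all genes), for 3 factors without CPX 4 (21.7% of all genes) and for 13 without CPX 4 and CPX 6 together (35.1%).

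These counts depended on single libraries. The 14 factors at an unadjusted p under 0.05 in edgeR (35%, against 13.2% of all genes) became 7 without CPX 4 (23.4% of all genes), 9 without CPX 6 (14.1%) and 9 without MPX 2 (9.3%). They became 4 without MPX 5 (3.99% of all genes), 5 without MPX 7 (5.68%), 9 without EA 5 (10%) and 9 without EA 7 (9.78%). Without EA 8 they became 12 (10.7%), and without CPX 8 they became 20 (23.8%). Without CPX 8, 168 genes were called, and 7 factors had lower levels in MPX past an adjusted p of 0.05 in edgeR: Eif3e, Eif3m, Eif3i, Eif3h, Eif3k, Eef1b2 and Eif4b. The number of factors whose groups did not overlap in that direction was then 29 in place of 10, while the share of all genes rose from 7.71% to 15.3%. That number was 9 without CPX 4 (18% of all genes) and 5 with column sums as the only scaling (3.06%). DESeq2 on all 9 libraries called 6 factors lower: Eif3e, Eif3m, Eif3i, Eif4a2, Eif4b and Eef1b2. Without CPX 4 and CPX 6 together, the median over the 40 genes was 0.010 and 1 factor, Eif5a, had an unadjusted edgeR p under 0.05 (10.4% of all genes).

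Between MPX and EA, the elongation factors and part of eIF3 had higher levels in EA, and the remaining families differed little in their medians. The median log2 difference (EA minus MPX) was 0.54 for the 5 elongation factors, 0.25 for the 11 eIF3 subunits (0.15 without EA 8), and 0.068 over the 40 genes, against 0.012 over all genes. The sign of the median over the 40 genes changed without MPX 5, while those of the eEF and eIF3 families did not change in any alternative run. No gene passed an adjusted p of 0.05 in the edgeR fit (0%), and 0 of the 40 factors had an unadjusted p under 0.05 (5.1% of all genes, 2.1% higher and 3.01% lower). That count was 4 without CPX 8 (8.21% of all genes) and 0 or 1 without any other library. DESeq2 called 49 genes and limma voom 0, with 0 factors in each, and edgeR called 23 genes without CPX 6.

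All EA libraries lay above all MPX libraries for 15 of the 40 factors (37.5%, against 21.5% of all genes) and below them for 3, Eif3l, Eif4h and Eif1ax (7.50%, against 19% of all genes). The number below was 12 without EA 8 (22% of all genes), 7 without MPX 2 (30.8% of all genes) and 1 with column sums as the only scaling (12.5% of all genes). The 15 comprised 5 of 5 elongation factors, 6 of 11 eIF3 subunits, 2 of 13 eIF4 members, 1 of 5 eIF2 members and 1 of 6 other factors. The fit of all 9 libraries shares 1 estimate of spread among the groups. Its SEs and p-values for EA minus MPX therefore also carry the spread within CPX. In an edgeR fit of EA and MPX alone, 84 genes passed an adjusted p of 0.05 (2.12%), among them 0 factors, whose smallest adjusted p was 0.0913. In that fit 8 factors had an unadjusted p under 0.05 (20%, against 32.1% of all genes). Of these, 7 were higher in EA (Eif4b, Eef1b2, Eif4ebp2, Eif3f, Eif3h, Eif3e and Eif3m) and 1, Eif1a, was lower.

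Between CPX and EA, 38 of the 40 factors had a negative fitted difference (EA minus CPX), with a median log2 difference of -0.30, against -0.093 over all genes. No gene passed an adjusted p of 0.05 in edgeR (0%), with DESeq2 calling 5 genes and limma voom 0, none of them a factor, and edgeR calling 12 genes without CPX 6. At an unadjusted edgeR p under 0.05, 4 factors were lower in EA (10%, against 2% of all genes, and 2.96% in either direction). The count in either direction was 0 without CPX 4 (3.87% of all genes), without EA 5 (1.24%) or without EA 7 (0.91%). It was 1 without MPX 2 (1.79%), MPX 5 (1.72%) or MPX 7 (1.67%), and 2 without EA 8 (1.06%). Without CPX 6 it was 5 factors (12.5%, against 23.4% of all genes), and without CPX 8 it was 15 (13.6% of all genes). The groups did not overlap for 5 factors lower in EA, Eif3c, Eif4a2, Eif4g2, Eif1 and Eif1ax (12.5%, against 5.08%), and for 1 higher in EA, Eif4g1 (2.5%, against 2.1%). The number lower was 31 without CPX 8 (13.8% of all genes) and 11 without EA 8 (7.53% of all genes). It was 1 with column sums as the only scaling (0.985% of all genes). The number higher was 17 without CPX 4 and CPX 6 together (31.2% of all genes) and 0 without CPX 4 (5.91%) or without any 1 of the MPX libraries (2.17%). Without CPX 8 the median over the 40 genes was -0.48, and without CPX 4 and CPX 6 together it was 0.071. The 3 comparisons share their libraries in pairs, so they are not independent of each other.

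**Figure D2:**
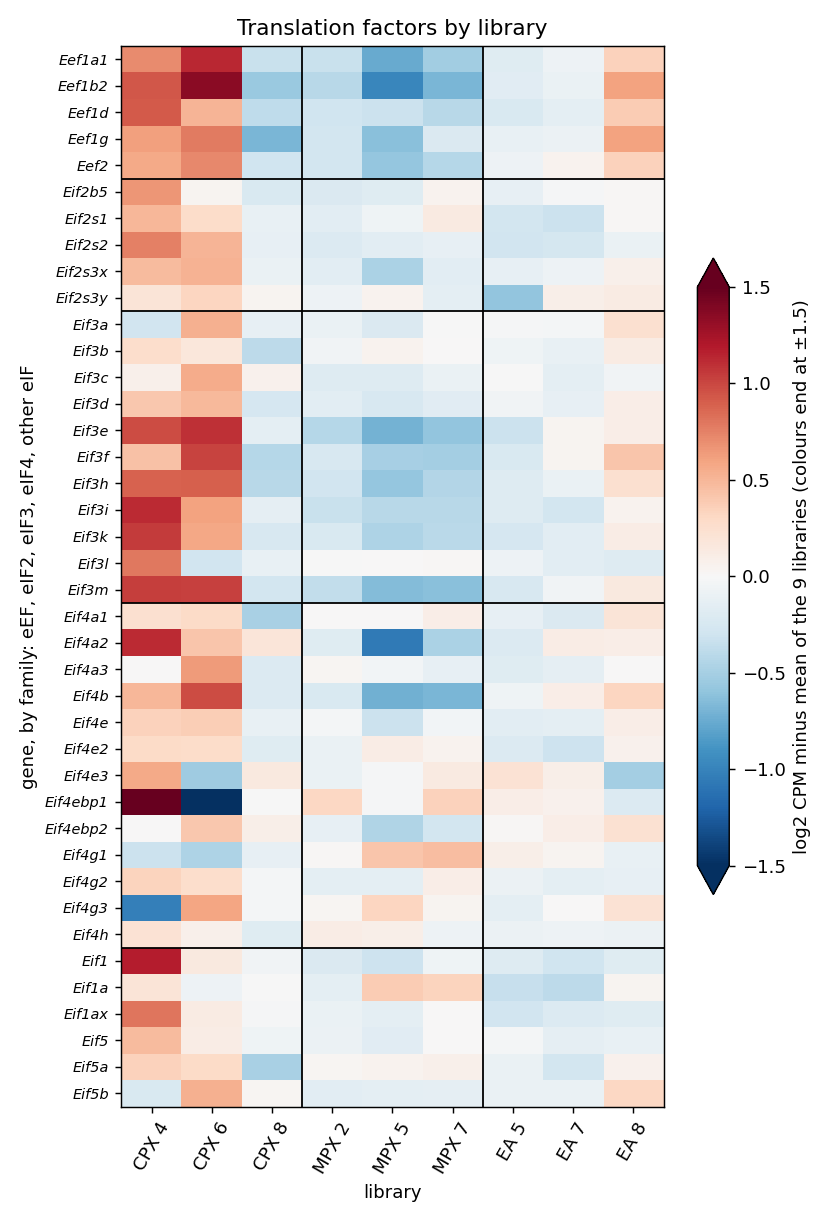
Log2 CPM of each of the 40 translation factors (rows, by family) in each of the 9 libraries (columns), as the difference from the mean of the 9 libraries, red above and blue below. CPX 4 and CPX 6 hold the highest value of 19 factors each. The 5 elongation factors are blue in CPX 8, in MPX 2, 5 and 7 and in EA 5, while 1 of them lies above the mean in EA 7 and 5 in EA 8.

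The spread within CPX was the largest of the 3 groups. The median coefficient of variation over the 40 factors was 32% in CPX, 9.22% in MPX and 11.9% in EA, against 43%, 10.8% and 14.9% over all genes. CPX 4 had the highest level of 19 factors (27.1% of all genes were highest there) and CPX 6 of another 19 (34.2%). The other 2 were highest in MPX 5 (13.4% of all genes) and MPX 7 (4.9%). CPX 4 lay above the whole MPX range for 34 factors and CPX 6 for 33. CPX 8 lay above that range for 12 factors, within it for 16 and below it for 12. Against the EA range, CPX 8 lay below for 18 factors, within for 17 and above for 5. These positions against the MPX and EA ranges were not counted over all genes, so they have no share to be set against. CPX 4 had the lowest level of 3 factors (27.3% of all genes were lowest there) and CPX 6 of 4 (33.1%).

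Among the elongation factors, Eef1a1 (chr9:78478449-78489151 in mm10, minus strand), whose start is the first of those printed above, was measured at 10231, 13669.8 and 4964 CPM in CPX 4, 6 and 8, 4982, 3721 and 4375 CPM in MPX 2, 5 and 7, and 5535, 5928 and 7972 CPM in EA 5, 7 and 8. CPX 4 and CPX 6 were the 2 highest libraries, CPX 8 lay within the range of MPX, and all EA libraries lay above all MPX libraries. The means were 9621 ± 4385 CPM in CPX, 4359 ± 631 CPM in MPX and 6479 ± 1309 CPM in EA (SD, n = 3). The log2 difference was -1.14 ± 0.46 (SE) for MPX minus CPX (2.21-fold lower, edgeR adjusted p = 0.367) and 0.57 ± 0.45 (SE) for EA minus MPX (1.49-fold higher, edgeR adjusted p = 0.775). In the edgeR fit of EA and MPX alone, Eef1a1 differed by 0.54 ± 0.26 (SE) on the log2 scale (edgeR adjusted p = 0.200). Reads of its processed pseudogenes could be counted with it, since the counting program is not given.

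Eef2 (chr10:81176631-81182498, plus strand), the translocase, was measured at 4005, 4456 and 2195 CPM in CPX 4, 6 and 8, 2232, 1808 and 2009 CPM in MPX 2, 5 and 7, and 2567, 2799 and 3435 CPM in EA 5, 7 and 8. It showed the same order of libraries: CPX 4 and CPX 6 highest, CPX 8 among the MPX libraries and EA above MPX. Its log2 difference was -0.82 ± 0.37 (SE) for MPX minus CPX (edgeR adjusted p = 0.392) and 0.54 ± 0.37 (SE) for EA minus MPX (edgeR adjusted p = 0.775). Eef1b2 (chr1:63176825-63180486, plus strand), the exchange factor subunit that reloads eEF1A with GTP, was measured at 544, 729 and 195 CPM in CPX 4, 6 and 8, 213, 145 and 177 CPM in MPX 2, 5 and 7, and 253, 267 and 435 CPM in EA 5, 7 and 8. It had the widest differences of the 5, with EA above MPX in every library, CPX 8 between the MPX values, and EA 8 below CPX 4 and CPX 6. The log2 difference was -1.45 ± 0.47 (SE) for MPX minus CPX (edgeR adjusted p = 0.362) and 0.83 ± 0.47 (SE) for EA minus MPX (edgeR adjusted p = 0.775), the second being 0.54 without EA 8. The other eEF1B subunits, Eef1d and Eef1g, also lay higher in each EA library than in each MPX library. For MPX minus CPX the family median was -0.82, and it was -0.099 without CPX 4 and CPX 6. The family's mean log2 deviation from the 9-library mean was 0.75 in CPX 4 and 0.90 in CPX 6, -0.45 in CPX 8, -0.65 to -0.32 in MPX, and -0.15, -0.07 and 0.46 in EA 5, 7 and 8.

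The eIF3 subunits did not share a single pattern. Eif3e (chr15:43250058-43282719, minus strand), a PCI-domain subunit of the outer part of the complex, was measured at 376, 408 and 172 CPM in CPX 4, 6 and 8, 142, 117 and 126 CPM in MPX 2, 5 and 7, and 153, 197 and 205 CPM in EA 5, 7 and 8. Every CPX library lay above every MPX library, and every EA library lay above every MPX library. The means were 319 ± 128 CPM in CPX, 128 ± 12.4 CPM in MPX and 185 ± 27.9 CPM in EA (SD, n = 3). Its log2 difference of -1.31 ± 0.33 (SE) for MPX minus CPX had the smallest unadjusted p of the 40 genes in that comparison (edgeR adjusted p = 0.362, and 0.00682 in DESeq2). For EA minus MPX it was 0.52 ± 0.32 (SE) (edgeR adjusted p = 0.775), and for EA minus CPX -0.79 ± 0.33 (SE) (edgeR adjusted p = 0.997). Without CPX 4 and CPX 6 the last of these was 0.092.

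Eif3m (chr2:104999656-105017080, minus strand), another PCI-domain subunit, was measured at 222, 221 and 89.2 CPM in CPX 4, 6 and 8, 83.7, 68.7 and 70.0 CPM in MPX 2, 5 and 7, and 91.4, 105 and 120.2 CPM in EA 5, 7 and 8. Its groups were ordered like those of Eif3e, with MPX below both other groups, and CPX 8 lay just below the EA libraries. The log2 difference was -1.26 ± 0.34 (SE) for MPX minus CPX (edgeR adjusted p = 0.362) and -0.75 ± 0.34 (SE) for EA minus CPX (edgeR adjusted p = 0.997), the latter becoming 0.23 without CPX 4 and CPX 6. Eif3i (chr4:129591960-129600648, minus strand), a WD-repeat core subunit, was measured at 281, 198 and 118 CPM in CPX 4, 6 and 8, 103, 97.1 and 97.5 CPM in MPX 2, 5 and 7, and 113, 107 and 134 CPM in EA 5, 7 and 8. All CPX libraries lay above all MPX libraries, and EA lay above MPX and below CPX 4 and CPX 6, with CPX 8 inside its range. The difference was -1.003 ± 0.30 (SE) on the log2 scale for MPX minus CPX (edgeR adjusted p = 0.362), and -0.63 without CPX 4. For EA minus CPX it was -0.75 ± 0.30 (SE) (edgeR adjusted p = 0.997), and -0.41 without CPX 4.

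Eif3a (chr19:60761116-60790693, minus strand), the largest scaffold subunit, was measured at 270.3, 479 and 303 CPM in CPX 4, 6 and 8, 308, 284 and 328 CPM in MPX 2, 5 and 7, and 324, 322 and 390.4 CPM in EA 5, 7 and 8. CPX 4 was its lowest library and CPX 6 its highest, so that the CPX values enclosed those of both other groups. Its log2 difference for MPX minus CPX was -0.19 ± 0.27 (SE) (edgeR adjusted p = 0.733), -0.31 without CPX 4, 0.10 without CPX 6 and -0.11 without MPX 5. Eif3b (chr5:140419328-140443360, plus strand), the second scaffold subunit, was named after its values were seen and was measured at 252, 234.7 and 159 CPM in CPX 4, 6 and 8, 201, 217 and 209 CPM in MPX 2, 5 and 7, and 200.2, 194 and 229 CPM in EA 5, 7 and 8. Its CPX values again enclosed all others, and the log2 difference for MPX minus CPX was -0.040 ± 0.22 (SE) (edgeR adjusted p = 0.940), with its sign turning under other scalings and left-out libraries. Across the 11 subunits the log2 difference for MPX minus CPX ran from -1.31 (Eif3e) to -0.040 (Eif3b), with a median of -0.87. That median was -0.56 without CPX 4, -0.48 without CPX 6 and 0.011 without both. Of the 11, 6 had an unadjusted edgeR p under 0.05, all lower in MPX (54.5%, against 8.21% of all genes). No test compared the subunits with each other.

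**Figure D3:**
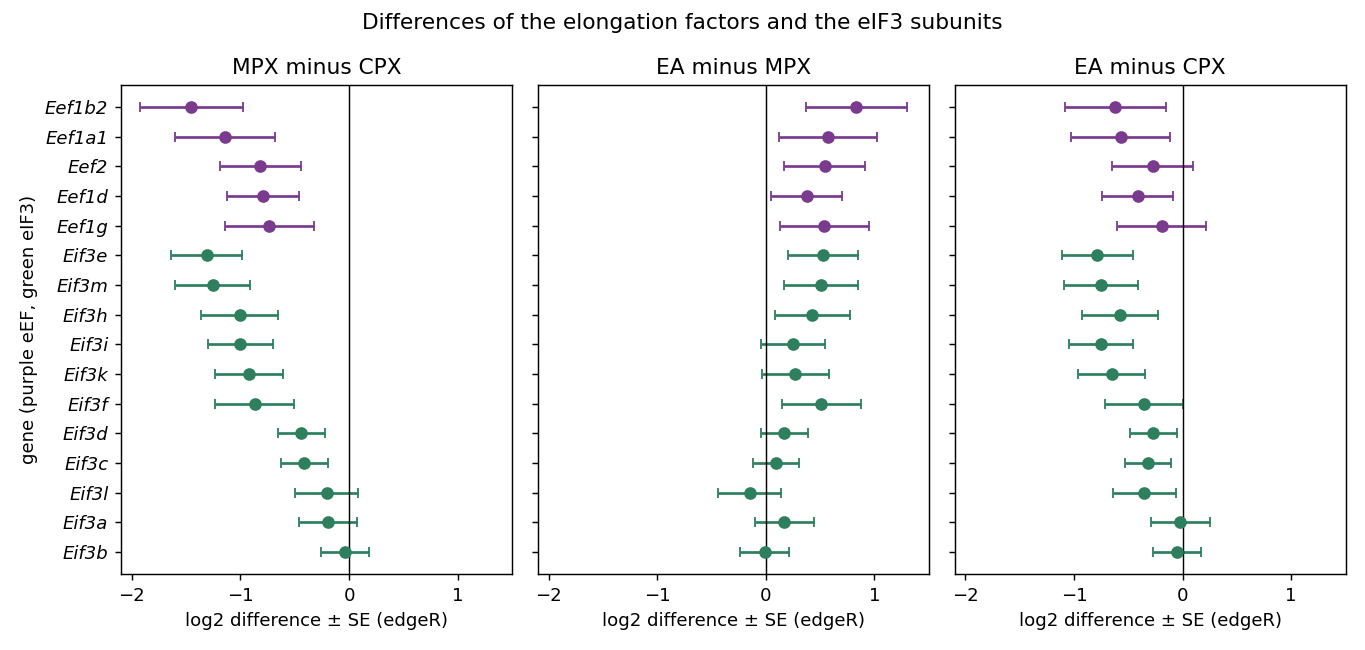
Log2 difference with its SE from edgeR for the 5 elongation factors (purple) and the 11 eIF3 subunits (green) in the 3 comparisons. For MPX minus CPX the eIF3 subunits run from -1.31 (Eif3e) to -0.040 (Eif3b), and for EA minus MPX the 5 elongation factors lie to the right of 0.

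Among the eIF4 factors, Eif4b (chr15:102073773-102097173, plus strand), the cofactor that stimulates the eIF4A helicase, was measured at 467, 656 and 289 CPM in CPX 4, 6 and 8, 282, 201 and 206 CPM in MPX 2, 5 and 7, and 317, 357 and 415 CPM in EA 5, 7 and 8. MPX lay below both other groups without overlap, and CPX 8 lay below the 3 EA libraries. The log2 difference was 0.66 ± 0.33 (SE) for EA minus MPX, with the smallest unadjusted p of the 40 genes in that comparison (edgeR adjusted p = 0.775), and -1.03 ± 0.33 (SE) for MPX minus CPX (edgeR adjusted p = 0.362). Eif4a2 (chr16:23107444-23114136, plus strand), one of the paralogous helicases, was measured at 1066, 656 and 556 CPM in CPX 4, 6 and 8, 435, 234.9 and 353 CPM in MPX 2, 5 and 7, and 427, 529.8 and 526 CPM in EA 5, 7 and 8. CPX lay above both other groups without overlap, and EA 5 lay within the MPX range. Its log2 difference was -1.15 ± 0.35 (SE) for MPX minus CPX (edgeR adjusted p = 0.362) and 0.54 ± 0.35 (SE) for EA minus MPX (edgeR adjusted p = 0.775), the second being 0.30 without MPX 5.

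Eif4g1 (chr16:20668313-20692884, plus strand), the scaffold that bridges the cap-binding protein and eIF3, was measured at 594, 539 and 684 CPM in CPX 4, 6 and 8, 755, 994 and 1028 CPM in MPX 2, 5 and 7, and 788, 763 and 687 CPM in EA 5, 7 and 8. It ran opposite to the factors above: all CPX libraries lay below all MPX libraries and below all EA libraries. The means were 606 ± 73.1 CPM in CPX, 926 ± 149 CPM in MPX and 746 ± 52.9 CPM in EA (SD, n = 3). Its log2 difference was 0.61 ± 0.27 (SE) for MPX minus CPX (edgeR adjusted p = 0.375) and -0.31 ± 0.26 (SE) for EA minus MPX (edgeR adjusted p = 0.775), the second being -0.48 without MPX 2. Eif4e, the cap-binding protein, was measured at 98.9, 100.3 and 71.9 CPM in CPX 4, 6 and 8, 76.4, 62.5 and 75.5 CPM in MPX 2, 5 and 7, and 70.0, 70.3 and 83.7 CPM in EA 5, 7 and 8. Its groups overlapped in all 3 comparisons.

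The binding proteins that hold Eif4e inactive until mTORC1 phosphorylates them differed from each other. Eif4ebp1 was measured at 632, 41.1 and 196 CPM in CPX 4, 6 and 8, 245, 195 and 251 CPM in MPX 2, 5 and 7, and 212, 207 and 172 CPM in EA 5, 7 and 8. CPX 4 was its highest library and CPX 6 its lowest, MPX and EA lay between them, and the groups overlapped in all 3 comparisons. The adipocyte markers had their highest mean log2 deviation in CPX 4 (0.96) and their lowest in CPX 6 (-2.43), and their part in the Eif4ebp1 values was not tested. Eif4ebp2 (chr10:61428491-61452661, minus strand) was measured at 296, 391 and 315 CPM in CPX 4, 6 and 8, 272, 216 and 244 CPM in MPX 2, 5 and 7, and 299, 316 and 346 CPM in EA 5, 7 and 8. MPX lay below both other groups without overlap, and the log2 difference for EA minus MPX was 0.39 ± 0.22 (SE) (edgeR adjusted p = 0.775). Over the 13 eIF4 members the median log2 difference for EA minus MPX was -0.057, and 0.042 with column sums as the only scaling. It was -0.24 for MPX minus CPX, -0.14 without CPX 4 and 0.19 without CPX 4 and CPX 6.

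**Figure D4:**
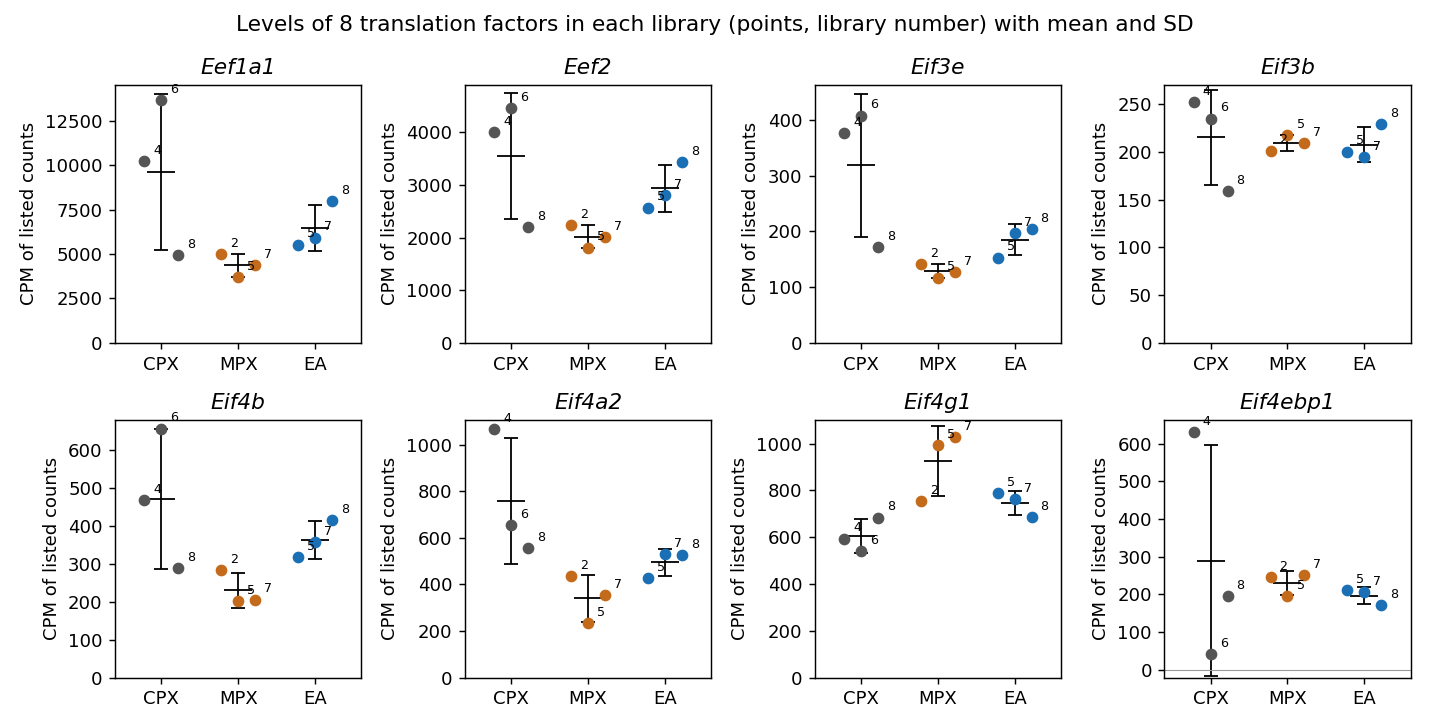
CPM in each library (points, with the library number) with the mean and SD of each group (n = 3) for 8 translation factors. Eif3e and Eif4b are lowest in the 3 MPX libraries, Eif4g1 is lowest in the 3 CPX libraries, and Eif4ebp1 runs from 41.1 CPM in CPX 6 to 632 CPM in CPX 4.

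The 5 eIF2 members had a median log2 difference of -0.32 for MPX minus CPX, and -0.21 without CPX 4. Eif2s1, the alpha subunit that stress kinases phosphorylate, was measured at 118, 101 and 76.6 CPM in CPX 4, 6 and 8, 74.4, 79.5 and 91.2 CPM in MPX 2, 5 and 7, and 68.8, 66.2 and 83.9 CPM in EA 5, 7 and 8. Its groups overlapped in all 3 comparisons. Eif2s2 (chr2:154871410-154892935, minus strand), the beta subunit, was measured at 175, 147 and 94.8 CPM in CPX 4, 6 and 8, 89.5, 92.9 and 94.7 CPM in MPX 2, 5 and 7, and 85.0, 85.8 and 96.5 CPM in EA 5, 7 and 8. All MPX libraries lay just below the lowest CPX library, and EA overlapped both groups. The log2 difference was -0.59 ± 0.24 (SE) for MPX minus CPX (edgeR adjusted p = 0.367), -0.35 without CPX 4, and -0.64 ± 0.24 (SE) for EA minus CPX (edgeR adjusted p = 0.997), -0.10 without CPX 4 and CPX 6.

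The gamma subunit has an X-linked and a Y-linked gene in mice, both named here after their values were seen. Eif2s3x (chrX:94188707-94212862, minus strand) was measured at 125, 130.1 and 84.6 CPM in CPX 4, 6 and 8, 80.7, 65.2 and 81.1 CPM in MPX 2, 5 and 7, and 83.2, 85.7 and 95.4 CPM in EA 5, 7 and 8. MPX lay below both other groups without overlap, and the log2 difference for MPX minus CPX was -0.58 ± 0.21 (SE) (edgeR adjusted p = 0.362). Eif2s3y was measured at 82.0, 89.6 and 73.6 CPM in CPX 4, 6 and 8, 67.8, 74.2 and 64.4 CPM in MPX 2, 5 and 7, and 47.3, 76.1 and 77.8 CPM in EA 5, 7 and 8. It had counts in all 9 libraries, and EA 5 was its lowest library. Reads of the near-identical copies could have been split between them, and the counting program is not given.

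Of the remaining initiation factors, Eif1 (chr11:100319885-100322096, plus strand) was measured at 863, 422 and 368 CPM in CPX 4, 6 and 8, 329, 307 and 365 CPM in MPX 2, 5 and 7, and 335, 312 and 337 CPM in EA 5, 7 and 8. CPX 4 stood far above the other 8 libraries, and EA and MPX overlapped. Its log2 difference was -0.75 ± 0.34 (SE) for EA minus CPX (edgeR adjusted p = 0.997), and -0.27 without CPX 4. Eif1a, which acts with Eif1 in scanning for the start codon, was measured at 122, 101 and 106 CPM in CPX 4, 6 and 8, 96.3, 139 and 134 CPM in MPX 2, 5 and 7, and 83.6, 80.8 and 109 CPM in EA 5, 7 and 8. MPX 5 and MPX 7 were its highest libraries and EA 5 and EA 7 its lowest, but EA 8 lay above MPX 2, so that the groups overlapped. The log2 difference for EA minus MPX was -0.43 ± 0.22 (SE) (edgeR adjusted p = 0.775).

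Eif1ax (chrX:159372178-159389928, plus strand), the X-linked gene for the same factor, was measured at 138, 86.3 and 78.5 CPM in CPX 4, 6 and 8, 74.2, 71.3 and 79.9 CPM in MPX 2, 5 and 7, and 64.8, 68.9 and 69.8 CPM in EA 5, 7 and 8. All EA libraries lay below all CPX and all MPX libraries. Its log2 difference for EA minus CPX was -0.57 ± 0.23 (SE) (edgeR adjusted p = 0.997), and -0.28 without CPX 4. Eif5a was measured at 558, 533 and 311 CPM in CPX 4, 6 and 8, 445, 451 and 461 CPM in MPX 2, 5 and 7, and 408, 362 and 459 CPM in EA 5, 7 and 8. CPX 8 was its lowest library, and the groups overlapped in all 3 comparisons. The 6 other factors had a median log2 difference of -0.28 for MPX minus CPX, -0.085 without CPX 4 and -0.18 without CPX 6.

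Grouped by the TOP list, 9 of 9 TOP members lay higher in every EA library than in every MPX library, and 6 of the other 31 did, against 21.5% of all genes. The list was drawn up with earlier results of these libraries known and is no independent evidence of its direction. The median log2 difference for EA minus MPX was 0.54 in TOP members and -0.036 in the other members, and the sign of the latter turned without EA 7 (0.0076) and with column sums (0.070). The medians were -1.01 and -0.27 for MPX minus CPX, with 7 of 9 TOP members lower at an unadjusted edgeR p under 0.05 (77.8%, against 8.21% of all genes). Without CPX 4 the second median was -0.14, and without CPX 4 and CPX 6 together the pair was -0.099 and 0.014.

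The 78 genes taken by name as cytosolic ribosomal protein genes, a class known for TOP mRNAs, had a median log2 difference of 0.71 for EA minus MPX and -1.32 for MPX minus CPX. The names took in Rpl7l1, Rps27rt and Rps27l as well, and membership of the TOP class was not checked gene by gene. In EA minus MPX, 51 of the 78 lay higher without overlap (65.4%, against 21.5% of all genes), and in MPX minus CPX 57 were lower at an unadjusted edgeR p under 0.05 (73.1%, against 8.21%). Their mean log2 deviation was 1.10 in CPX 4, 1.14 in CPX 6, -0.70 in CPX 8, -0.90 to -0.33 in MPX, and -0.27, 0.02 and 0.55 in EA 5, 7 and 8. The TOP members stood at 0.73, 0.94 and -0.38 in CPX 4, 6 and 8, -0.64 to -0.31 in MPX, and -0.17, -0.03 and 0.37 in EA 5, 7 and 8. The other 31 members spanned a narrower range, from -0.14 (MPX 5) to 0.43 (CPX 4).

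**Figure D5:**
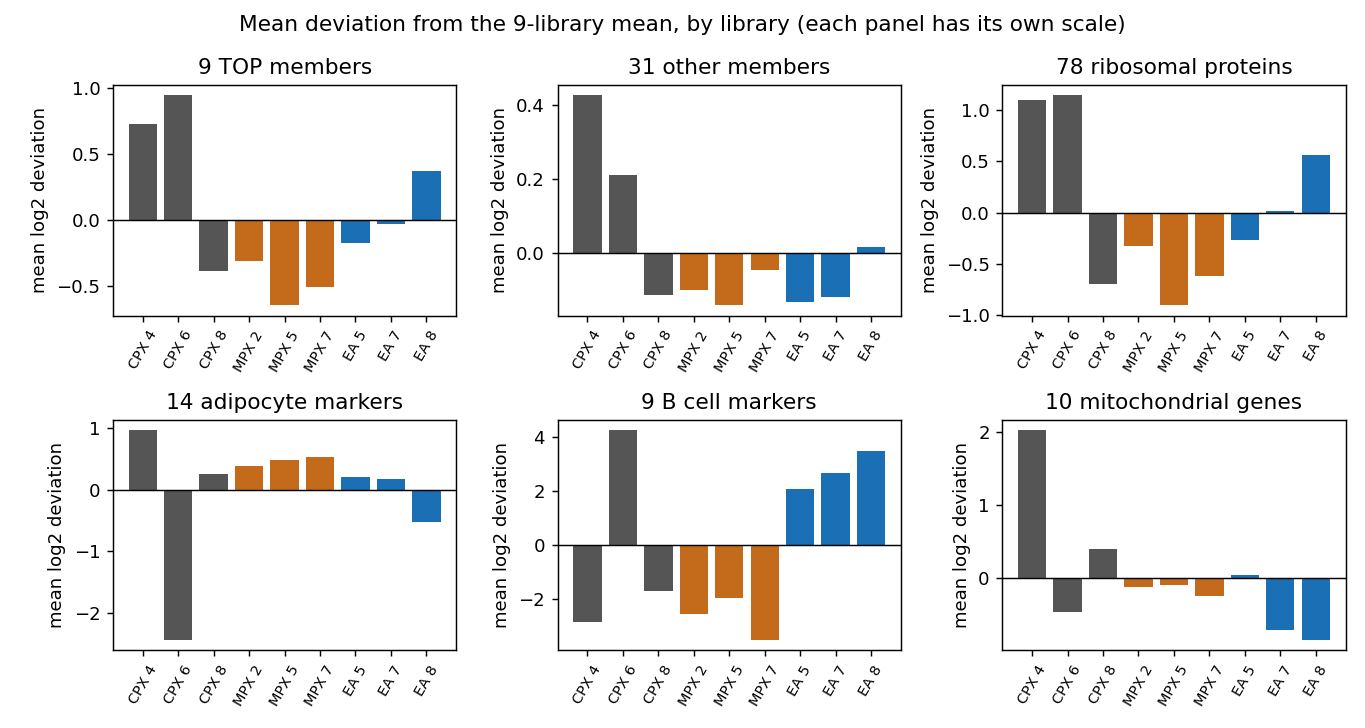
Mean log2 deviation from the 9-library mean (bars, by library) of the TOP members, the other 31 members, the ribosomal protein genes, adipocyte markers, B cell markers and mitochondrially encoded genes. TOP members and ribosomal proteins are highest in CPX 4 and CPX 6, while adipocyte markers are highest in CPX 4 (0.96) and lowest in CPX 6 (-2.43), and B cell markers are low in CPX 4 (-2.84) and high in CPX 6 (4.26) and the EA libraries.

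Several marker lists differed between the libraries with these levels. Endothelial markers (7 of 8 listed) deviated by -0.58 in CPX 4, -0.69 in CPX 6 and 0.36 in CPX 8 on the log2 scale, by 0.18 to 0.62 in MPX, and by 0.017, 0.18 and -0.31 in EA 5, 7 and 8. They were thus low in the 3 libraries where the TOP members were highest, with sums of 972 to 1779 CPM in CPX, 1647 to 2348 CPM in MPX and 1224 to 1645 CPM in EA. B cell markers deviated by -2.84 in CPX 4, 4.26 in CPX 6 and -1.68 in CPX 8 on the log2 scale, by -3.50 to -1.96 in MPX and by 2.10 to 3.49 in EA. Plasma cell markers (6 of 10 listed) summed to 3219 to 24391 CPM in CPX, 774 to 1451 CPM in MPX and 1838 to 9676 CPM in EA. Macrophage markers (11 of 11 listed) summed to 1585 to 4825 CPM in CPX, 1396 to 4049 CPM in MPX and 2965 to 6957 CPM in EA. CPX 4 had the lowest TMM factor (0.753, against 0.981 to 1.10 in the other 8), and mitochondrially encoded genes deviated there by 2.02. Its deviations also ran with gene length: the Spearman correlation across genes was -0.462 over all genes and -0.402 over the 40 factors, against 0.286 and 0.345 in CPX 8. Split by length, factors shorter than the median of 3986.5 bases had a median log2 difference of -0.65 for MPX minus CPX and longer ones of -0.28, against -0.13 and -0.10 for all genes split at their own median. The part of these values in the differences was not tested.

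Genes that work with the factors were counted from lists. Of 40 names searched, 11 tRNA synthetase genes, which charge tRNAs with amino acids, were listed. Their median log2 difference was 0.026 for EA minus MPX and -0.24 for MPX minus CPX. In the second, 1 was lower at an unadjusted edgeR p under 0.05 (9.09%, against 8.21% of all genes). Vars, the valine enzyme, was measured at 55.7, 333 and 65.9 CPM in CPX 4, 6 and 8, 68.3, 76.5 and 70.5 CPM in MPX 2, 5 and 7, and 112, 153 and 217 CPM in EA 5, 7 and 8. CPX 6 was its highest library, and EA lay above MPX without overlap. Of 3 listed termination and recycling genes, the recycling factor Abce1 lay lower in each MPX library than in each CPX or EA library.

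Among 12 listed mRNA-binding regulators the median was 0.064 for EA minus MPX and -0.30 for MPX minus CPX. Fmr1, the RNA-binding protein FMRP that represses translation, had the list's largest difference and was measured at 172, 119 and 351 CPM in CPX 4, 6 and 8, 235.0, 1265 and 744 CPM in MPX 2, 5 and 7, and 99.1, 156 and 81.4 CPM in EA 5, 7 and 8. MPX 5 and MPX 7 were its highest libraries, every EA library lay below every MPX library, and MPX 2 lay within the CPX range. Its fitted difference on the log2 scale was -2.74 ± 0.67 (SE) for EA minus MPX (edgeR adjusted p = 0.775, and 0.00246 in DESeq2). For MPX minus CPX it was 1.81 ± 0.64 (SE) (edgeR adjusted p = 0.362, and 0.04996 in DESeq2), 1.22 without MPX 5 and 1.12 without CPX 4 and CPX 6. Rack1, a scaffold protein of the small ribosomal subunit, was measured at 1176, 1927 and 534 CPM in CPX 4, 6 and 8, 520.1, 346 and 424 CPM in MPX 2, 5 and 7, and 667, 778 and 1184 CPM in EA 5, 7 and 8. Every EA library lay above every MPX library, CPX 8 lay just above MPX 2, and EA 8 reached the level of CPX 4. The log2 difference was 1.03 ± 0.48 (SE) for EA minus MPX (edgeR adjusted p = 0.775) and -1.49 ± 0.49 (SE) for MPX minus CPX (edgeR adjusted p = 0.362), the second -0.99 without CPX 6 and called in DESeq2 and without CPX 8.

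The 11 listed genes of the integrated stress response, which acts through phosphorylated eIF2, had a median log2 difference of -0.37 for EA minus MPX, with 3 higher (27.3%, against 21.5% of all genes) and 6 lower (54.5%, against 19%) without overlap. For MPX minus CPX the median was 0.083. The list pools genes of the response with Ppp1r15b, which acts against eIF2 phosphorylation, so its median gives no direction of the response. Ppp1r15b, a regulatory subunit of the phosphatase that reverses eIF2 phosphorylation, was measured at 169, 232 and 159 CPM in CPX 4, 6 and 8, 151, 118 and 118 CPM in MPX 2, 5 and 7, and 206, 173 and 179 CPM in EA 5, 7 and 8. MPX lay below both other groups, and the log2 difference for EA minus MPX was 0.52 ± 0.22 (SE) (edgeR adjusted p = 0.775). Slc3a2, the heavy chain of amino acid transporters, was measured at 133, 162 and 131 CPM in CPX 4, 6 and 8, 214, 301 and 226 CPM in MPX 2, 5 and 7, and 185, 181 and 173 CPM in EA 5, 7 and 8. MPX lay above both other groups without overlap, and for MPX minus CPX the log2 difference was 0.80 ± 0.20 (SE) (edgeR adjusted p = 0.362, and 0.0027 in DESeq2).

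The 15 listed genes around mTORC1, which governs TOP mRNAs and the Eif4e binding proteins, had a median of -0.20 for EA minus MPX and 0.13 for MPX minus CPX. This list pools activators and inhibitors of mTORC1, so neither its median nor the level of any single gene gives a direction of mTORC1 activity. In EA minus MPX, 6 of them lay lower without overlap (40%, against 19% of all genes) and 0 higher. Rps6ka3, a ribosomal S6 kinase gene distinct from Rps6kb1 of the same list, was measured at 191, 224 and 309 CPM in CPX 4, 6 and 8, 356, 312 and 413 CPM in MPX 2, 5 and 7, and 195, 207 and 173 CPM in EA 5, 7 and 8. Every EA library lay below every MPX library, and the difference was -0.91 ± 0.25 (SE) on the log2 scale (edgeR adjusted p = 0.775, 0.0453 in edgeR on EA and MPX alone and 0.0107 in DESeq2). The kinase genes Eif2ak2, Eif2ak3, Eif2ak4 and Eef2k, and Eef1a2 and Eif6, were not among the listed genes and could not be analysed here.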

How the data were processed

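Adipose RNA of 9 libraries was sequenced, and reads were aligned with HISAT2 2.0.5 to mm10, per the submitters' processing notes. The authors deposited unnormalized counts for each gene and library, per the file headers. How reads were assigned to genes and strands is not given in the sources used here. The table lists the 3958 genes with the highest totals, from 3653827 down to 8471 counts, and 11 gene names damaged in the table were restored from gene IDs.

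The test was edgeR 4.0.16 under R 4.3.3 (TMM, filterByExpr, robust quasi-likelihood, 1 fit of all 9 libraries, no covariate), with Benjamini-Hochberg adjustment over all genes and a threshold of 0.05. The filter removed no gene. The biological coefficient of variation was 40.1%. SEs were derived from the log2 difference and F. Alternatives used DESeq2 1.42.0, limma 3.58.1 (voom), other scalings, left-out libraries and a replicate block. The fit was tested on simulated counts. Mean log2 deviations used a prior count of 2. Transcription starts came from RefSeq (GRCm38.p6).

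Values in every library are given for 11 listed factors of 17 fixed by name, and for the 6 factors with the smallest unadjusted p in each comparison. Of each other list, the 2 genes with the smallest p could be named. The members, lists and tests were chosen with earlier results of these data known.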

Additional observations from a re-analysis of the deposited data

How the results depend on the processing

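Differences of the eEF and eIF3 families and of the TOP members between EA and MPX kept their sign in the alternatives run, and no alternative called a factor there or between EA and CPX. The 2 filter alternatives removed no gene and say nothing about stability. DESeq2 called 49 genes for EA minus MPX, 201 genes and 6 factors for MPX minus CPX and 5 genes for EA minus CPX. A fit of the 2 groups compared called 84 genes for EA minus MPX and gave 8 factors at an unadjusted p under 0.05 for MPX minus CPX (6.85% of all genes). The table lists only abundant genes, and each group has 3 libraries.

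With column sums as the only scaling, the median of all genes moved from 0.012 to 0.11 for EA minus MPX, from -0.11 to 0.0018 for MPX minus CPX and from -0.093 to 0.10 for EA minus CPX. For EA minus MPX the median was then 0.17 over all factors, 0.042 for eIF4, 0.070 outside the TOP list and 0.016 for other eIF. For MPX minus CPX it was -0.039 for eIF4, with Eif3b at 0.076. In that run 9 factors had an unadjusted p under 0.05 (12.3% of all genes) and 5 were lower without overlap (3.06%). For EA minus CPX the median was -0.068 for eIF4, -0.072 outside the TOP list and -0.051 for other eIF. Upper-quartile factors put Eif3b at 0.066, and limma voom put the eIF4 median at -0.080 for MPX minus CPX and -0.13 for EA minus CPX. The cause was not tested.

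Without CPX 4 and CPX 6 together, CPX was CPX 8 alone, assumed to vary like the other groups. For MPX minus CPX the medians were then 0.010 over all factors, -0.012 for eIF2, 0.011 for eIF3, 0.19 for eIF4, -0.099 for eEF, -0.014 for other eIF, -0.099 for TOP members and 0.014 outside that list, with 1 factor at an unadjusted p under 0.05, Eif3a at 0.044 and Eif3b at 0.42. For EA minus CPX they were 0.071 over all factors, -0.079 for eIF2, 0.18 for eIF3, 0.045 for eIF4, 0.41 for eEF, 0.41 for TOP members and 0.017 outside that list, with Eif3e at 0.092 and Eif3m at 0.23, and 80 genes were called for EA minus MPX.

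Leaving out each library in turn gave, for MPX minus CPX, 0 to 168 genes called and 0 to 7 factors called. Factors at an unadjusted p under 0.05 ran from 4 without MPX 5 (3.99% of all genes) to 20 without CPX 8 (23.8%). Factors lower without overlap ran from 9, without CPX 4 (18% of all genes) or MPX 5 (7.73%), to 29 without CPX 8 (15.3%). Leaving out a library also gave eIF3 medians of -1.13 to -0.48, Eif3a at -0.31 to 0.10 and Eif3b at -0.19 to 0.13. The 168 genes and 7 factors came without CPX 8. For EA minus MPX it gave 0 to 23 genes called (23 without CPX 6), eIF2 medians of -0.11 to 0.11 and eIF4 medians of -0.13 to -0.029. For EA minus CPX it gave 0 to 12 genes called (12 without CPX 6) and eIF4 medians of -0.41 to -0.13.

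Library numbers were shared by EA and MPX (5 and 7), and the labels do not say that a number pairs libraries. With the number as a replicate block, 6 genes and 0 factors were called for EA minus MPX, against 0 and 0 without it, 6 factors had an unadjusted p under 0.05 (23% of all genes), and the eEF median was 0.49. The residual correlation of same-numbered libraries was 0.0222 for number 5 and 0.125 for number 7. The other comparisons share fewer than 2 numbers, so no paired fit was made there.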
